A study of Mus musculus with 34 samples.

Results

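The RNA of telomerase and of the proteins that cap telomeres was examined in mouse embryonic stem cells (mESCs) of the J1 line, deprived of LIF with or without Royalactin. The 10 genes were chosen by name as Tert, Terc and Dkc1 of telomerase, Terf1, Terf2, Terf2ip, Tinf2, Pot1a and Pot1b of shelterin, and Rif1. All 10 had a row among the 23366 rows of the deposited table, and all 10 were expressed highly enough to be tested. None of them passed the test for a difference between the conditions, with the lowest adjusted p at 0.615 for Tert in limma after Benjamini-Hochberg adjustment. Tert, Terf2ip and Pot1b were lower, and Pot1a and Rif1 higher, in both Royalactin libraries than in either library without Royalactin. The other 5 genes overlapped between the conditions.

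RNA-seq was available for 4 libraries, of which 2 were serum/-LIF cultures and 2 were serum/-LIF + Royalactin cultures that received 0.5 mg/ml of the purified honey bee protein. All 4 shared the J1 line, serum medium, gelatin-coated plates and the absence of LIF, the cytokine that keeps these cells undifferentiated in serum. The labels give passage 40 for every library, whereas the study's text gives another passage. Serum/+LIF RNA libraries were not analysed here, so the cells could not be set against undifferentiated controls, and because the samples are bulk cultures, fewer cells of a type and less RNA per cell cannot be told apart.

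Telomeres are tandem repeats at chromosome ends that shorten at each replication unless telomerase extends them. Telomerase copies the repeat from its own RNA, and shelterin covers the repeat, hides the end from the DNA damage response and controls the access of telomerase. mESCs keep telomerase active, and most differentiating cells reduce it.

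Reads on genes numbered 14737796 to 17597818 per library. The ribosomal precursor Rn45s took 46.6% and 21.6% of them in serum/-LIF replicates 1 and 2 and 38.4% and 9.08% in serum/-LIF + Royalactin replicates 1 and 2. Values are normalized counts, which are reads per gene divided by one size factor per library. As a check of the cells, 3 of 10 mESC markers passed an adjusted p of 0.05 in limma, against 0.493% of tested genes, and all 3 were higher with Royalactin (Sox2, Zfp42 and Esrrb). Conditions did not overlap for 7 of the 10, against 38.6% of tested genes (19.7% higher, 18.9% lower). Of those 7, Tdgf1 and Lin28a were lower with Royalactin. Pou5f1 was between 4996 and 7453 normalized counts in every library. The summed level of 10 fibroblast markers was 1049 to 2130 normalized counts in serum/-LIF and 3268 to 6139 with Royalactin, carried by Fn1 (2007 and 954 without, 6072 and 3227 with Royalactin). Other fibroblast markers were low and did not share 1 direction. Dcn was at 37.4 and 31.1 without and 0 and 0 with Royalactin, and Col1a1 at 12.0 and 11.4 without and 0 and 4.13 with Royalactin. Thy1 overlapped, at 41.5 and 33.1 without and 45.3 and 29.6 with Royalactin. Col1a2 was at 0 and 1.04 without and 10.1 and 0 with Royalactin, and Pdgfrb and Postn were at 0 in all libraries. For 8 neural markers the sum was 1737 to 2148 in serum/-LIF and 1208 to 1353 with Royalactin, with Nes as the only one called (1490 and 1099 without, 334 and 326 with Royalactin) and Neurog2 at 0 throughout. The lower sum came from Nes, since Pax6 (93.6 and 79.7 without, 172 and 171 with Royalactin) and Tubb3 (377 and 379 without, 484 and 708 with Royalactin) had higher values in both Royalactin libraries, and 4 of 6 tested neural markers had a higher mean. For 8 primitive endoderm markers it was 447 to 947 and 636 to 1105. The part of these markers in the differences described here was not tested.

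Terc, the RNA that telomerase copies, is shown first because its template is the sequence from which each telomeric repeat is made. In the annotation used here it is the gene Telomerase-vert on the minus strand of chromosome 3, from 96218360 to 96218782 of mm9, a single exon of 423 bases outside any protein-coding gene. A second locus of the same name, of 412 bases, lies on the minus strand at 30494268 to 30494679 of chromosome 3. The first 150 bases of each are given 5′ to 3′, with the run CTAACCCT, the complement of the telomeric repeat, in capitals, at bases 29 to 36 and 27 to 34.
Terc (chr3:96218633-96218782, mm9): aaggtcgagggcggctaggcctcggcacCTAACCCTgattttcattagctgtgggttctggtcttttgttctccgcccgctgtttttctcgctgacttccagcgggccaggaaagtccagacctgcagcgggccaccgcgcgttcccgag
Second locus (chr3:30494530-30494679, mm9): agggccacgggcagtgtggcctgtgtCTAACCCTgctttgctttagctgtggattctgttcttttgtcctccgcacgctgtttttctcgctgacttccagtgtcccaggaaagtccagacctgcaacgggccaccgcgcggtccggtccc
The loci were identical at 348 of 399 aligned bases (87.2%). Their most alike stretch of 75 bases, the read length, held 5 mismatches, above the 2 that the alignment allowed. Of the 349 stretches of 75 bases in Terc, 0 had an ungapped match elsewhere within 2 mismatches.

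Mice carry a pair of Pot1 genes where most mammals have a single one, and the stretch in which their coding sequences are most alike shows how far their reads can be told apart. It covers bases 448 to 522 of both coding sequences and lies within an exon of each, with the mismatches in capitals.
Pot1a (chr6:25725549-25725623, minus strand, mm9): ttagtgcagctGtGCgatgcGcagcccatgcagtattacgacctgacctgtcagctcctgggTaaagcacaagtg
Pot1b (chr17:55834349-55834423, minus strand, mm9): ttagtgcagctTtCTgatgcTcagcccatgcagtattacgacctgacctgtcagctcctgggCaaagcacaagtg
From Pot1a to Pot1b the changes are G12T, G14C, C15T, G21T and T63C, counted from 1 at the 5′ end of the stretch. Both coding sequences have 1920 bases, and 1525 of 1907 aligned bases (80.0%) were identical. No stretch of 75 bases in either came within 2 mismatches of the other. An error-free coding read of 75 bases from one paralog therefore had no ungapped place on the other within that limit. Shorter reads and gapped alignments were not tested. Over whole transcripts, ungapped matches elsewhere within 2 mismatches were found for 11.8% of the 75-base stretches of Pot1b and 0.231% of those of Pot1a. They were found for 3.19% of those of Dkc1, 5.34% of those of Terf2 and 4.34% of those of Terf2ip. For Tert, Terf1, Tinf2 and Rif1 the share was 0%.

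Tert (chromosome 13, 73764449 to 73786489 of mm9) encodes the reverse transcriptase of telomerase. It was at 142 and 218 normalized counts in serum/-LIF replicates 1 and 2 and at 71.4 and 110.1 in serum/-LIF + Royalactin replicates 1 and 2. Both Royalactin libraries were below both serum/-LIF libraries. The means were 180.1 ± 54.2 and 90.8 ± 27.4 normalized counts (SD, n = 2), a ratio of 0.504. On the log2(normalized count + 1) scale the difference, Royalactin minus serum/-LIF, was -0.98 (standard error 0.52, 95% interval -2.10 to 0.14), the largest of the 10 genes, and 80.0% of all tested genes had a smaller difference in absolute size. It did not pass the test (limma, unadjusted p = 0.0822, Benjamini-Hochberg adjusted p = 0.615). Between 71 and 211 reads were counted for Tert per library. Counting error alone gives a standard error of 0.13 on this difference, below the 0.52 from limma.

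Terc was at 1629 and 2608 normalized counts in serum/-LIF replicates 1 and 2 and at 1085 and 3235 in serum/-LIF + Royalactin replicates 1 and 2. The highest and the lowest value were therefore both Royalactin libraries, and the conditions overlapped. Means were 2119 ± 693 and 2160 ± 1520 normalized counts (SD, n = 2), and the log2 difference was -0.14 (95% interval -1.07 to 0.80, limma with Benjamini-Hochberg adjustment, adjusted p = 0.953). The mean and the log2 difference point in opposite directions for Terc. In both conditions the library with the larger share of Rn45s, replicate 1, had the lower Terc, and the part of that share in the Terc values was not tested.

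Dkc1 (chromosome X, 72341193 to 72355116) encodes dyskerin, which binds and stabilises Terc and also acts on ribosomal RNA. Its libraries were at 2914 and 4440.4 normalized counts without and 4129 and 3431 with Royalactin, so the Royalactin values lay between those of serum/-LIF. The log2 difference was 0.07 with a 95% interval of -0.61 to 0.74 (limma, Benjamini-Hochberg adjusted p = 0.968). The interval leaves room for changes from 0.657-fold to 1.67-fold.

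**Figure D1:**
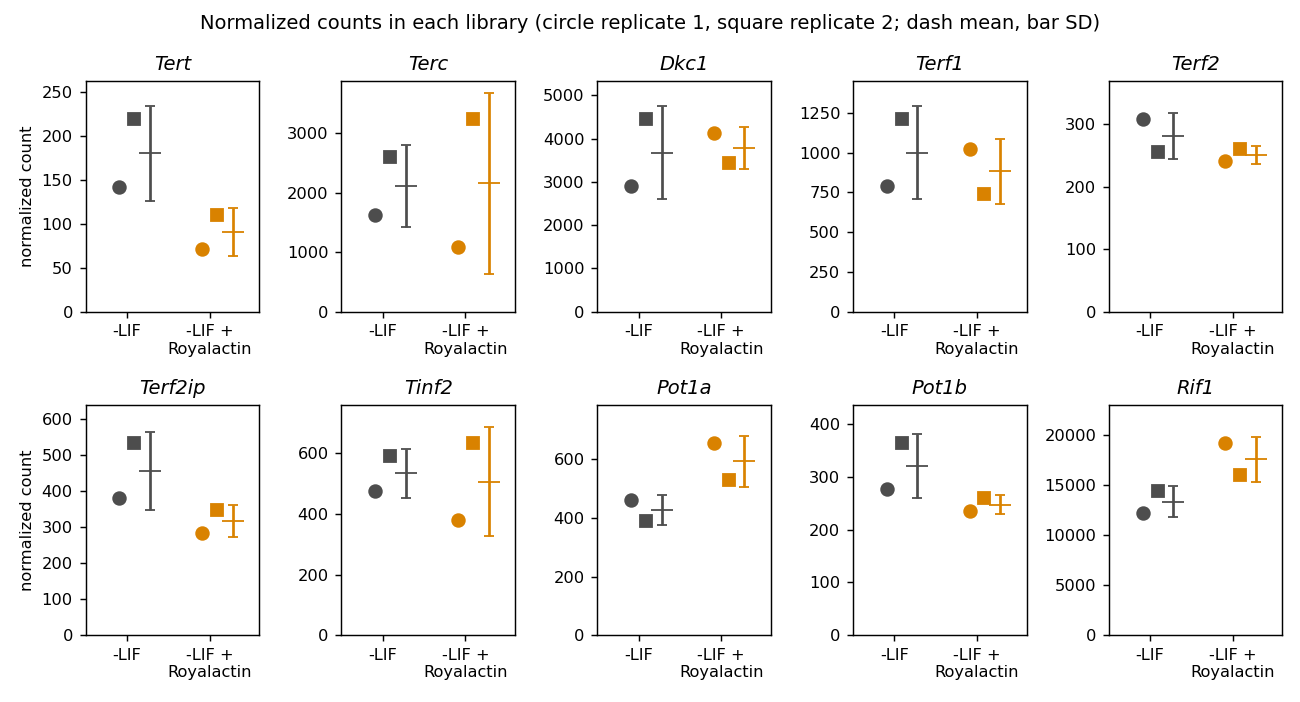
Normalized counts (y axis, from 0) of the 10 genes in serum/-LIF (grey) and serum/-LIF + Royalactin (orange), with a circle for replicate 1, a square for replicate 2, and a dash with a bar for the mean and SD of n = 2. Tert, Terf2ip and Pot1b were lower and Pot1a and Rif1 higher in both Royalactin libraries, and the other 5 overlapped.

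Terf1 and Terf2 bind the duplex repeat, Terf1 in control of telomere length and replication and Terf2 in folding the end into a protected loop. Terf1 (chromosome 1, 15795739 to 15833551) was at 793 and 1209 normalized counts in serum/-LIF and 1025 and 739 with Royalactin. Terf2 (chromosome 8, 109593300 to 109620447) was at 308 and 256 in serum/-LIF and 240.4 and 261 with Royalactin. Both overlapped between the conditions, with log2 differences of -0.17 for Terf1 and -0.16 for Terf2 (limma, Benjamini-Hochberg adjusted p = 0.916 and 0.934). The ratio of Terf1 to Terf2 was 2.58 and 4.73 in the serum/-LIF libraries and 4.26 and 2.83 in the Royalactin libraries. The mean log2 ratio differed by -0.01 between the conditions (two-sided exact permutation test, p = 1).

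Terf2ip (chromosome 8, 114535259 to 114544428) encodes Rap1, the partner of Terf2. It was at 381 and 534 normalized counts in serum/-LIF and at 286 and 348 with Royalactin, so both Royalactin libraries were lower. Means were 458 ± 108 and 317 ± 44.3 normalized counts (SD, n = 2), with a log2 difference of -0.52 (standard error 0.37, limma, Benjamini-Hochberg adjusted p = 0.726). Tinf2 (chromosome 14, 56295455 to 56300654), which bridges the repeat-binding proteins to the rest of shelterin, was at 476 and 591 in serum/-LIF and 378 and 633 with Royalactin. The Royalactin libraries lay outside the serum/-LIF values on either side, and the log2 difference was -0.12 (limma, Benjamini-Hochberg adjusted p = 0.952). Tinf2 shares 232 exon bases, 7.84% of its total, with Gmpr2 on the opposite strand, and the strand setting of the counting is not given in the sources used here.

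Pot1a and Pot1b bind the single-stranded overhang, Pot1a in restraining the damage response at the end and Pot1b in limiting the trimming of the strand opposite the overhang. Pot1a (chromosome 6, 25693737 to 25759246) was at 461 and 389 normalized counts in serum/-LIF and at 654 and 529 with Royalactin, higher in both Royalactin libraries. Pot1b (chromosome 17, 55791323 to 55851926) was at 277 and 363 in serum/-LIF and at 234 and 260.2 with Royalactin, lower in both. Neither passed the test. The log2 difference was 0.47 for Pot1a (95% interval -0.26 to 1.20, limma, Benjamini-Hochberg adjusted p = 0.727) and -0.36 for Pot1b (95% interval -1.20 to 0.48, adjusted p = 0.831).

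Because a ratio within a library needs no scaling between libraries, Pot1a was also set against Pot1b directly. The ratio was 1.67 and 1.07 in serum/-LIF replicates 1 and 2 and 2.79 and 2.03 in serum/-LIF + Royalactin replicates 1 and 2, higher in both Royalactin libraries, with means of 1.37 ± 0.421 and 2.41 ± 0.534 (SD, n = 2). The mean log2 ratio was higher by 0.83 with Royalactin (two-sided exact permutation test, p = 0.333, the smallest p that 2 libraries against 2 can give). The difference ranged from 0.51 to 1.15 with each library left out, without serum/-LIF replicate 2 and replicate 1 respectively.

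**Figure D2:**
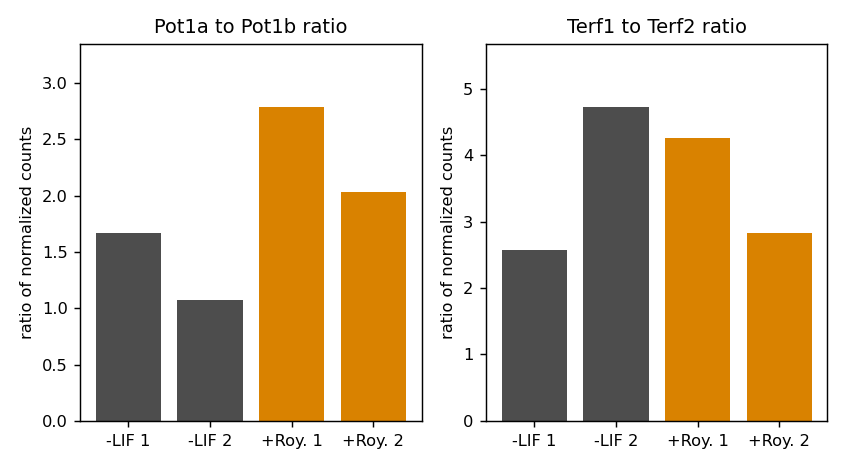
Ratio of normalized counts (y axis, from 0) of Pot1a to Pot1b and of Terf1 to Terf2 in each library, serum/-LIF in grey and serum/-LIF + Royalactin in orange. The Pot1a to Pot1b ratio was 1.67 and 1.07 without and 2.79 and 2.03 with Royalactin, whereas the Terf1 to Terf2 ratios of the conditions overlapped.

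Acd, the remaining shelterin subunit, encodes TPP1, which joins Pot1 proteins to Tinf2 and recruits telomerase. Though outside the list, it completes the complex. It was at 142 and 74.5 normalized counts in serum/-LIF and at 135 and 194 with Royalactin, which overlap, and its log2 difference was 0.65 (limma, Benjamini-Hochberg adjusted p = 0.764). Without serum/-LIF replicate 2 the difference was 0.19, and without replicate 1 it was 1.11. Between 72 and 282 reads were counted for it per library.

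Rif1 (chromosome 2, 51928357 to 51977903) encodes a large protein that sets replication timing through protein phosphatase 1 and acts with Trp53bp1 at DNA breaks, and that is abundant in mESCs. It was at 12275 and 14463 normalized counts in serum/-LIF and at 19229.7 and 16046 with Royalactin, so both Royalactin libraries were higher. The means were 13369 ± 1547 and 17638 ± 2251 normalized counts (SD, n = 2), a ratio of 1.32. The log2 difference of 0.40 (standard error 0.34, 95% interval -0.34 to 1.14) did not pass the test (limma, Benjamini-Hochberg adjusted p = 0.777). The log2 gaps between replicates were smaller, at 0.24 without and 0.26 with Royalactin. The limma standard error also draws on genes of similar level. With 9179 to 23311 reads per library, counting error gives a standard error of 0.012.

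Across the 10 genes, 5 had conditions that did not overlap, 2 higher and 3 lower, which is 50% of the list against 38.6% of the 12993 tested genes (19.7% higher, 18.9% lower). Read against that background, the share is no result about these genes. None passed an adjusted p of 0.05 in limma, where 64 genes (0.493% of those tested, 0.331% higher and 0.162% lower) did, and 0 of the 10 had an unadjusted p under 0.05, against 9.34% of tested genes. The limits of the study's methods, an unadjusted p of 0.05 with a 2-fold change, selected 0 of the 10 and 7.13% of tested genes (3.52% higher, 3.61% lower). The median log2 difference was -0.15 over the 10 genes and -0.01 over all tested genes, and the median absolute difference was 0.26 against 0.40.

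These counts do not show that the genes were unaffected. The 95% interval of the log2 difference lay within 2-fold in either direction for 3 genes (Dkc1, Terf1 and Tinf2) and reached 2-fold for the other 7. For Tert it reached down to 0.233-fold, and for Pot1a and Rif1 up to 2.30-fold and 2.20-fold. Limma standard errors were 0.31 to 0.52 over the 10 genes, whereas counting error gave at most 0.13. Which intervals lay within 2-fold depended on the setting. Fitted without a variance trend, those of Dkc1 (-0.98 to 1.11), Terf1 (-1.28 to 0.94) and Tinf2 (-1.25 to 1.01) reached 2-fold. With a GC and length correction, added after seeing the data, those of Terc, Terf2 and Rif1 also lay within 2-fold.

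**Figure D3:**
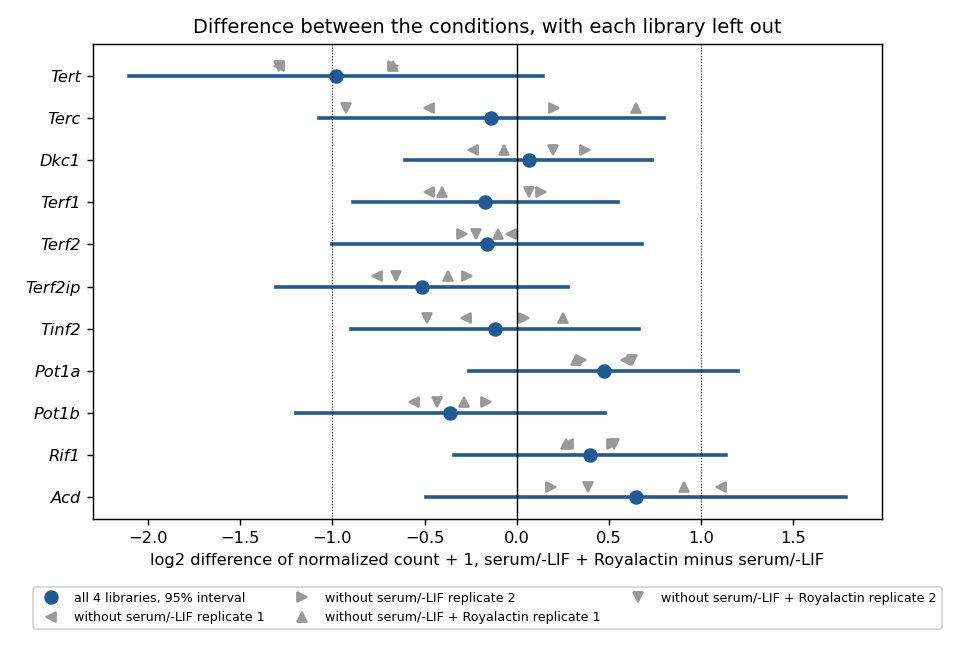
Log2 difference of normalized count + 1, serum/-LIF + Royalactin minus serum/-LIF (x axis), for the 10 genes and Acd, as a point with its 95% limma interval in blue and, in grey, the value with each library left out. Dotted lines mark 2-fold. All intervals include 0, and the grey values of Tert stay between -1.29 and -0.67.

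Replicates of a condition were far apart for several of the genes. In 6 of the 10 genes the log2 gap between the replicates of at least 1 condition was larger than the difference between the conditions. The share of all tested genes with such a gap was not computed, so this count is no result particular to the 10 genes. Over the 10 genes the median gap was 0.44 without and 0.29 with Royalactin, against 0.57 and 0.39 over all tested genes. Serum/-LIF replicate 2 was above replicate 1 for 8 of the 10 genes, where 48.3% of all tested genes were. With each library left out in turn, Tert, Terf2, Terf2ip, Pot1a, Pot1b and Rif1 kept the sign of their log2 difference, while Terc, Dkc1, Terf1 and Tinf2 changed it in 2 of 4 cases each. Leaving out serum/-LIF replicate 2 or replicate 1 took the difference of Terf2ip to -0.27 or -0.76, that of Pot1b to -0.16 or -0.56 and that of Terf2 to -0.30 or -0.03.

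Levels of different genes were compared as normalized counts per kilobase of annotated exon, averaged over the 4 libraries. Terc was highest at 5057 per kilobase, followed by Rif1 at 1473, Dkc1 at 905 and Terf1 at 562. The lowest were Pot1a at 58.6, Terf2 at 57.9 and Tert at 39.5. Terc, Rif1 and Dkc1 followed each other without overlap of their libraries, and Terf1 stood above Tinf2 (176) in the same way. Dkc1 overlapped Terf1, and from Tinf2 downward each gene overlapped its neighbour in the order, Terf2ip (108), Acd (89.1) and Pot1b (81.1) included. The exon lengths come from GENCODE and may differ from those the authors counted on, which matters most for Pot1a, whose annotated exons span 8680 bases for a coding sequence of 1920.

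**Figure D4:**
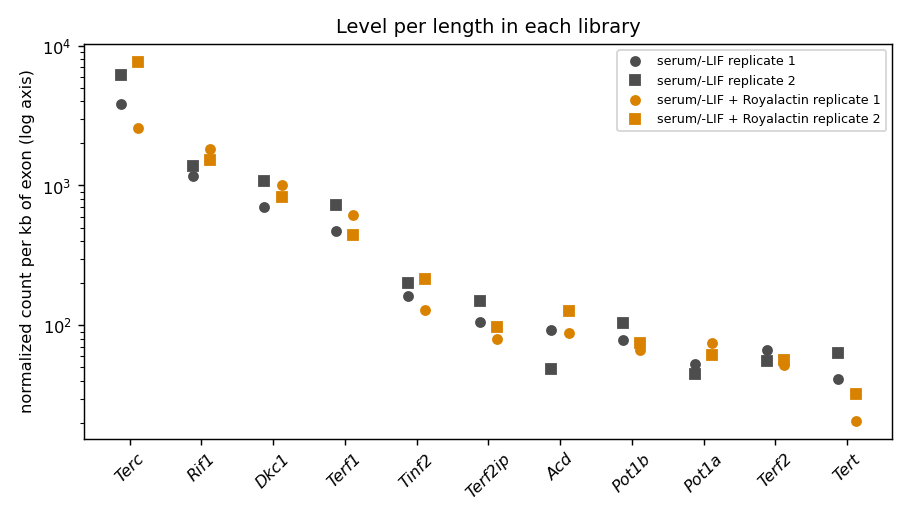
Normalized counts per kilobase of exon (log y axis) for the 10 genes and Acd, in order of their mean over the 4 libraries, serum/-LIF in grey and serum/-LIF + Royalactin in orange, circles for replicate 1 and squares for replicate 2. Levels run from 5057 for Terc to 39.5 for Tert on average.

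The genes nearest to Tert in their pattern over the 4 libraries, by Euclidean distance of centred log2 values, were Tmem141 (distance 0.029), Tmem106c (0.061) and Gmds (0.063). Tmem141, for example, was at 54.8 and 83.8 normalized counts in serum/-LIF and 27.2 and 41.3 with Royalactin. The distances rest on 4 libraries and are given as a description.

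Other telomere genes were taken from lists by role, 61 in all with Acd, of which 60 had a row and were tested. None passed an adjusted p of 0.05 in limma, 3 had an unadjusted p under 0.05 (Rtel1, Brca1 and Trp53bp1), and 1, Rtel1, was within the limits of p and 2-fold change. Over all tested genes these shares were 0.493%, 9.34% and 7.13%. Conditions did not overlap for 20 (33.3%), 16 higher and 4 lower with Royalactin, against 38.6% of all tested genes (19.7% higher, 18.9% lower). The median log2 difference of the 60 was 0.13.

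For the assembly and processing of telomerase, 0 of 15 genes were called, against 0.493% of all tested genes, and the median log2 difference was 0.13. The ends of that list were Wrap53, which guides telomerase to Cajal bodies, with 185 and 152 normalized counts without and 200.2 and 275 with Royalactin (log2 difference 0.48), and Pinx1, an inhibitor of telomerase, with 409 and 727 without and 360.1 and 423 with Royalactin (log2 difference -0.48). Neither passed the test (limma, Benjamini-Hochberg adjusted p = 0.789 and 0.746). The Pinx1 difference was -0.07 without serum/-LIF replicate 2 and -0.90 without replicate 1, and that of Wrap53 ranged from 0.25 (without Royalactin replicate 2) to 0.71 (without Royalactin replicate 1).

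Of 17 genes of telomere replication and end processing, 0 were called, 6 were higher and 1 lower without overlap (0.493%, 19.7% and 18.9% of all tested genes), and the median log2 difference was 0.12. Rtel1, a helicase that unwinds telomeric loops, was at 1003 and 563 normalized counts in serum/-LIF and at 1535 and 1499 with Royalactin. The means were 783 ± 311 and 1517 ± 25.2 (SD, n = 2), a log2 difference of 1.01 (standard error 0.34, 95% interval 0.29 to 1.73). It had an unadjusted p of 0.00949 and an adjusted p of 0.306 in limma with Benjamini-Hochberg adjustment, and without serum/-LIF replicate 2 the difference was 0.60. Wrn, a helicase and exonuclease, lay at the other end of the list, at 552 and 627 in serum/-LIF and 352 and 434 with Royalactin (log2 difference -0.59, limma, Benjamini-Hochberg adjusted p = 0.645).

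Among 11 genes of telomeric chromatin, 0 were called, against 0.493% of all tested genes, and the median log2 difference was -0.08. The highest log2 difference was that of Zbtb48, which binds telomeric repeats, with 96.3 and 25.9 normalized counts without and 103.6 and 105 with Royalactin (log2 difference 1.04). H3f3a, a gene for histone H3.3, was at 6063 and 11214 without and 6323 and 6710 with Royalactin (log2 difference -0.34). Adjusted p-values were 0.706 and 0.818 in limma with Benjamini-Hochberg adjustment. Both values rested on serum/-LIF replicate 2, without which the log2 difference was 0.12 for Zbtb48 and 0.10 for H3f3a. Without serum/-LIF replicate 1 it was 1.97 and -0.78. H3f3a shares 638 exon bases (18.2% of its total) with Gm17275 and 160 (4.57%) with Gm16067, both on the opposite strand. The strand setting of the counting is not given in the sources used here.

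Of 16 tested partners of Rif1 and genes of break repair, 0 were called, 4 were higher and 2 lower without overlap, to be read against the same 0.493%, 19.7% and 18.9% of all tested genes, and the median log2 difference was 0.19. Brca1, which starts repair by recombination, was at 1697 and 1716 normalized counts in serum/-LIF and at 2805 and 3049 with Royalactin (log2 difference 0.78, standard error 0.28, limma, unadjusted p = 0.0164, Benjamini-Hochberg adjusted p = 0.378). Trp53bp1, which recruits Rif1 to breaks and was named after its value was seen, was at 1359 and 793 in serum/-LIF and 1745 and 1692 with Royalactin (log2 difference 0.73, limma, Benjamini-Hochberg adjusted p = 0.513). Mad2l2, which acts downstream of Rif1 against end resection, was at 150 and 208 in serum/-LIF and 137 and 119 with Royalactin (log2 difference -0.46, limma, Benjamini-Hochberg adjusted p = 0.818), with a difference of -0.23 without serum/-LIF replicate 2 and -0.70 without replicate 1.

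The Zscan4 genes, transiently active in mESCs and known for lengthening telomeres by recombination, are near-identical copies. How reads that match several copies were counted is not given in the sources used here, so the single values and their sum are uncertain. The sum over the 6 Zscan4 genes was 151 to 200 normalized counts in serum/-LIF and 96.6 to 176 with Royalactin, which overlap. Of the 4 tested, 0 were called in limma and 0 had an unadjusted p under 0.05, against 0.493% and 9.34% of all tested genes. The ends were Zscan4a, at 8.02 and 1.04 without and 17.1 and 27.5 with Royalactin, and Zscan4c, at 10.7 and 83.8 without and 0 and 33.7 with Royalactin.

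**Figure D5:**
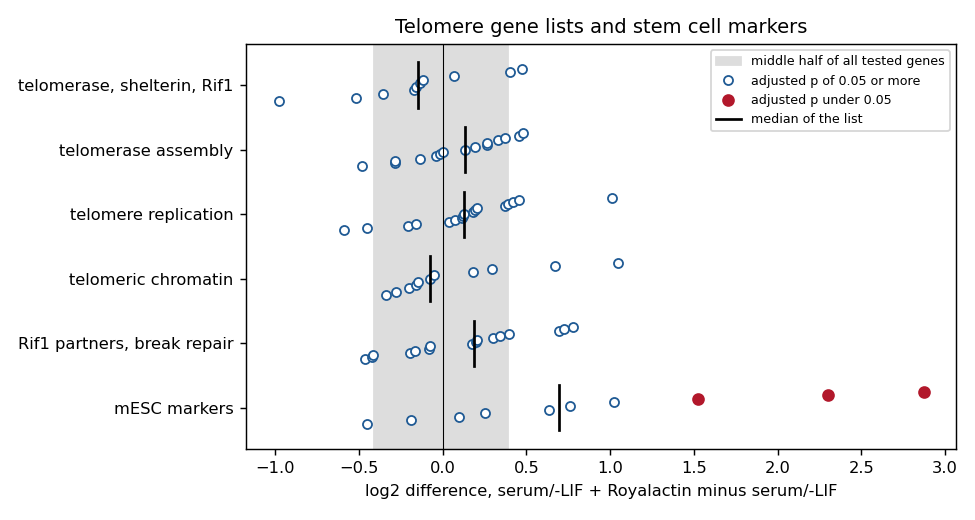
Log2 difference, serum/-LIF + Royalactin minus serum/-LIF (x axis), of each tested gene in the telomere lists and in the mESC markers, with a black line for the median of the list and a grey band from the first quartile (-0.41) to the third quartile (0.39) of all tested genes. Filled red points are genes with an adjusted p under 0.05, which are found in the mESC markers (3 genes) and not in the telomere lists.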

How the data were processed

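RNA was depleted of ribosomal RNA and sequenced as single reads of 75 bases. Alignment by the authors was to mm9 with Tophat, allowing 2 mismatches. Reads per gene came from HTSeq-count, and the authors normalized them with DESeq and deposited the result, a signal proportional to reads. The annotation and strand setting are not given in the sources used here. In every library 100% of values were whole multiples of one step (within 0.01 of a read), from which reads per gene were taken. No count model was run, since the deposited values are normalized counts and the reads were recovered from the steps. The step nearest to that of unscaled reads was 1.01, in serum/-LIF + Royalactin replicate 1. Of 34 samples, 30 are ATAC-seq and were not analysed here. The files hold 27 symbols that read as dates.

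Differences were fitted with limma 3.58.1 in R 4.3.3 on log2(normalized count + 1), with a variance trend. Tests were two-sided, p-values were adjusted by Benjamini-Hochberg over the 12993 genes whose mean reached 10, and the scale understates changes of low genes. The steps were run on simulated counts that gave all genes a common dispersion. That run cannot show how the fit handles genes of unequal spread. The labels mention triplicate growth but do not tie these 2 libraries per condition to separate cultures, so the spread between libraries may be technical. Limma draws each gene's variance towards that of genes of similar level. The p-values, standard errors and intervals therefore do not rest on a gene's own libraries alone. Positions, exon lengths and sequences come from mm9 with GENCODE M1. Members and lists were chosen with earlier results of these data known. Named genes are the 10 members, Acd, and of each other list those past a threshold and the largest change either way, plus the 3 genes nearest to Tert. Alternatives were pseudocounts of 0.1 and 5, other filters and scalings, no trend, the replicate block, each library left out, and, added after seeing the data, a GC and length correction (lowess).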

Additional observations from a re-analysis of the deposited data

How the results depend on the processing

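None of the 10 genes passed an adjusted p of 0.05 in limma under any of the 15 alternatives, with the lowest value of 0.111 for Rif1 under the replicate block with GC and length correction. Tert, Terf2, Terf2ip, Pot1a, Pot1b and Rif1 kept their sign in all 15. With each library left out, the log2 difference ranged from -0.92 to 0.65 for Terc, -0.24 to 0.37 for Dkc1, -0.47 to 0.13 for Terf1, -0.49 to 0.25 for Tinf2, -0.78 to 0.10 for H3f3a and -4.98 to 0.14 for Zscan4c. With the GC and length correction, without or with the block, it was 0.14 for Terc and 0.049 for Terf1. The median of the 10 genes ranged from -0.37 (without serum/-LIF replicate 1) to 0.087 (without serum/-LIF replicate 2), and the log2 Terf1 to Terf2 ratio from -0.44 to 0.43. The limits of p and 2-fold change selected 1 of the 10 genes, Tert, under the block with the correction.

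The number of all tested genes past the adjusted threshold, 64, became 32 at pseudocount 0.1, 34 without a filter on low values, 99 at a mean of at least 50, 391 with the replicate block, and, with the correction added after seeing the data, 252, or 800 with the block too. It was 0 without the trend (1135 at an unadjusted p under 0.05), and 0 to 60 with a library left out, lowest without serum/-LIF replicate 1 (2518 unadjusted) and without serum/-LIF + Royalactin replicate 2 (547). Rescaling to the total without Rn45s gave 35 higher and 11 lower, against 43 and 21. The number within the limits of p and 2-fold change, 927, ranged from 519 to 1963 with a library left out. For none of these was the cause tested.

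Same-numbered replicates had deviations with a Pearson correlation of 0.0851 across genes. Their labels share only a number, and replicate 1 had the larger share of Rn45s in both conditions. Whether same-numbered libraries were prepared together was not tested. Under the block Rtel1 passed (limma, Benjamini-Hochberg adjusted p = 0.029, and 0.00194 with the correction), and Brca1 did so with the correction (adjusted p = 0.00583). In these blocked fits the variance came almost wholly from genes of similar level, and hardly from the gene's own libraries. The Pot1a to Pot1b ratio taken in pairs had an exact p of 0.5, the smallest of that design. A setting with 1 library in a condition assumes that it varies like the other condition.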
